A study of Mus musculus with 16 samples.

Results

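Basophils, mast cells and eosinophils are granulocytes known from allergy and defence against parasites, and basophils and eosinophils are made in the bone marrow. The genes described here are 8 named markers of these cells, Prss34, Mcpt8, Cpa3, Fcer1a, Ms4a2, Hdc, Prg2 and Epx, read from a table of 23999 gene symbols in 16 mouse RNA libraries. The members were picked by name, with earlier results of these data known, and all 8 were in the table. The libraries came from myeloid sarcomas, solid masses of leukaemic cells outside the marrow, and from whole bone marrow infiltrated by the leukaemia. All mice carried the mutant nucleophosmin allele NPM1cA. Marrow came from 9 mice that were also SMC3+/-, with 1 copy of a cohesin ring gene lost. The SMC3+/- sarcomas were 6 tumours of 4 mice (948 and 2721 with 2 tumours each, 1267, and 1268_1270, a label that may stand for 1 mouse or for 2 pooled). The tumour of mouse 841 was labelled NPM1cA alone, read here as SMC3 wild type, and is 1 sample of its genotype. Mice 1267 and 2721 gave both tissues. Age, sex and the promoter that drives the alleles are not given in the labels. Tumours went straight into the RNA reagent, whereas marrow was crushed, filtered and cleared of red cells, so handling and tissue cannot be told apart.

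Basophil and mast cell granules hold proteases and histamine, those of mast cells also heparin, and their release follows when IgE bound to its high-affinity receptor is cross-linked. Eosinophil granules hold toxic cationic proteins and a peroxidase. In marrow the transcription factors Gata2 and Gata1, with C/EBP factors, are known to direct precursors to these lineages, and interleukins 3 and 5 expand them.

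The RefSeq promoter table (build GRCm38.p6, matched by symbol) held a window for 7 of the 8 genes, Prg2 being the exception. It gives 250 bases before and 50 after the start. The GATA motif AGATAA, searched on both strands, was in the window of 4 genes, Prss34, Cpa3, Fcer1a and Ms4a2, and was not found in those of Mcpt8, Hdc and Epx. For Mcpt8 and Hdc all 250 upstream bases lay inside the annotated gene, so the bases before that gene were not searched. Of 32851 windows of the same length, 11.2% held it. The second GATA form TGATAA (9.05% of windows) and the STAT motif TTCNNNGAA (8.3%) matched in none of the 7, and the C/EBP motif TTGCNNAA (10.8%) matched only in Fcer1a. These are matches of letters and not evidence of binding. The upstream bases of 3 genes with a match and of Epx without one are given here, 5′ to 3′ on the gene's strand, since they lie outside the annotated genes except for 28 bases of Cpa3 and 3 of Fcer1a. Capitals mark AGATAA or, for a match on the other strand, its reverse complement TTATCT.
Prss34 (chr17:25298144-25298393, plus strand): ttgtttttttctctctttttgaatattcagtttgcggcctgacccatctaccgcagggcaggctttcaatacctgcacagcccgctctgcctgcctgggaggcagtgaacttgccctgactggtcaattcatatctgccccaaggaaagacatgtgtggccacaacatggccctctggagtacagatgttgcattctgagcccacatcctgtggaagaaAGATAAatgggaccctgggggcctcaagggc
Cpa3 (chr3:20242182-20242431, minus strand): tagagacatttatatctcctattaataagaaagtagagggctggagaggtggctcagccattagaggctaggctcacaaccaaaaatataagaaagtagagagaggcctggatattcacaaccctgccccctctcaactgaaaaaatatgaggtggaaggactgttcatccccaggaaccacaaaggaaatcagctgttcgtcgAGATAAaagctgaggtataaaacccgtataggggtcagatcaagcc
Fcer1a (chr1:173227230-173227479, minus strand): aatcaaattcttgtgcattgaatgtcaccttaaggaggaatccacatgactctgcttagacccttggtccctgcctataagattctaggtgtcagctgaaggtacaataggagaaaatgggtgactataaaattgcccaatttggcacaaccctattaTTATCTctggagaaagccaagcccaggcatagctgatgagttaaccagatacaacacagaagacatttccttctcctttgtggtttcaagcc
Epx (chr11:87875537-87875786, minus strand): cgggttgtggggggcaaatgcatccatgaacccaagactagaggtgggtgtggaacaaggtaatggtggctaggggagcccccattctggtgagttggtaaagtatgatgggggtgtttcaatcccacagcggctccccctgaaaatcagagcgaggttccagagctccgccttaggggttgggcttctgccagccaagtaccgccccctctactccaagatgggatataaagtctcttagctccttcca

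The match in Prss34 began 31 bases before the start and that in Cpa3 46 bases before it, both on the gene's own strand. The match in Fcer1a began 92 bases before the start on the other strand. Ms4a2 held 3 matches, 224, 37 and 11 bases before its start. The nearest 71 of its upstream bases lay inside the annotated gene, and with them the matches at 37 and 11 bases. The genes are spread over 7 chromosomes. Only Prg2 (chr2:84980461-84983632) and Hdc (chr2:126593659-126624025) share 1, and they lie far apart on it. The coordinates are those of GRCm38.p6 and not of mm9, the build named for the counts.

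The libraries held 9797201 to 39197660 counts, so that 1 count was 0.0255 to 0.102 CPM (counts-per-million). Levels are taken over the deposited total of each library, without further scaling, and values per sarcoma mouse sum the tumours of that mouse. Transcripts over 6000 bases were low in marrows 737, 779 and 782 (median log2 deviation from the median library -2.16, -2.18 and -1.95) and in tumour 1 of mouse 948 (-0.81). Elsewhere the deviation was -0.61 to 0.56, lowest in marrow 1267, which was not counted among the libraries low in long transcripts. The 8 genes have short transcripts, the longest coding form running from 836 bases in Mcpt8 to 2689 in Epx. Sarcoma 1268_1270 held the fewest leukocyte transcripts, 800 CPM summed over 16 pan-leukocyte genes, against 7135 to 10301 CPM in the other SMC3+/- tumours and 8037 to 16417 CPM in marrow. In bulk RNA a lower level can come from fewer cells of a type or from less RNA per cell, and these cannot be told apart.

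How sarcoma compared with infiltrated marrow was asked with 4 sarcoma and 9 marrow mice, all SMC3+/-. All 8 genes were lower on average in sarcoma, with log2 fold changes from -7.69 for Prss34 to -1.34 for Mcpt8 and a median of -2.40, against 0.07 over the 14730 genes tested, although Cpa3 turned to 0.16 when scaled to the pan-leukocyte genes. By edgeR's quasi-likelihood test with Benjamini-Hochberg adjustment 0 of the 8 passed, where 0.0543% of all genes were called lower and 4.49% higher. At an unadjusted p under 0.05, 3 of the 8 (Prss34, Hdc and Prg2) were lower, against 2.1% of all genes. A log2 fold change of -2 or below was seen in 6 of the 8 and in 1.45% of all genes, but with pan-leukocyte scaling in 2 of the 8, Prss34 and Epx (0.319% of genes). For 0 of the 8 did the sarcoma mice lie wholly below the marrows, a pattern seen in 0.238% of genes. The 8 were chosen with earlier results of these data known, so their shares beside those of all genes are descriptive only. DESeq2 called 2 of the 8 lower, Prss34 and Hdc (0.599% of its genes), and limma-voom called 0 (0.136%). With pan-leukocyte scaling, which moved the median of all genes to 2.06, the median of the 8 was -0.96 and Prss34 alone was called (0.0611% of genes lower). Prss34 was also the 1 gene of the 8 called without the count filter (0.0616% of genes), with tumour libraries as units (0.122%) and with the tumour of mouse 841 added to the sarcomas (0.14%).

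**Figure D1:**
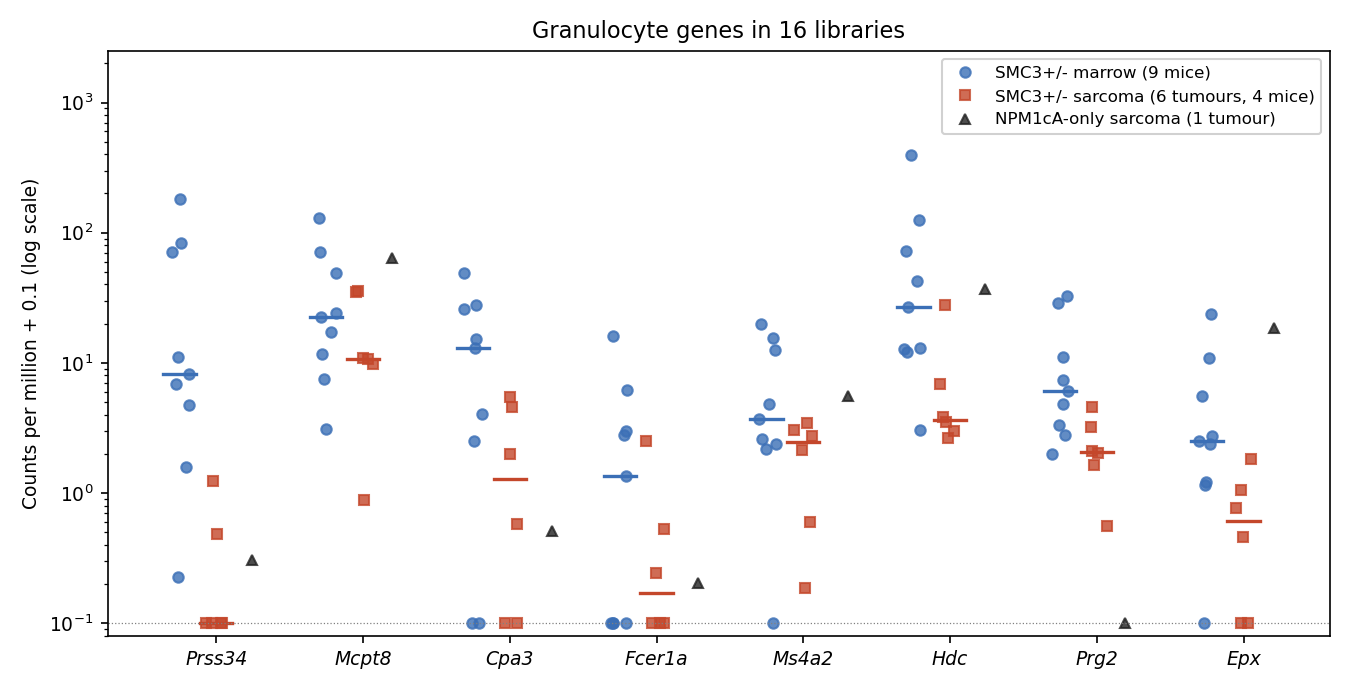
Level of the 8 genes in each of 16 libraries, in CPM plus 0.1 on a log scale; circles are marrows, squares SMC3+/- tumours, triangles the tumour of mouse 841, bars the median over libraries, and the dotted line marks 0. Prss34 reached 182 CPM in marrow and at most 1.13 CPM in a tumour, while for each of the 8 genes some tumours lay at the level of some marrows.

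Prss34 encodes a serine protease known in mice as a basophil product. Its level in the 9 marrows ran from 0.128 CPM in mouse 919 over a median of 8.09 to 182 CPM in mouse 1103. In sarcomas it was 0 in mice 948, 1267 and 1268_1270 and 0.740 CPM in mouse 2721, whose tumours held 0.380 and 1.13 CPM. Thus 8 of 9 marrows were above every sarcoma mouse, and marrow 919 alone lay among the sarcomas. The mean was 41.0 ± 61.6 CPM (SD, n = 9) in marrow and 0.185 ± 0.370 CPM (SD, n = 4) in sarcoma, from 8485 and 30 counts. The log2 fold change of -7.69 ± 2.13 (SE) had an edgeR adjusted p of 0.0570 and so missed the threshold, while DESeq2's adjusted p was 8.96e-06. Counts of 0 in these tumours allow up to 0.0893 CPM in mouse 1267 and 0.129 CPM in 1268_1270, by counting error alone.

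Within the mice that gave both tissues Prss34 went the same way. Mouse 1267 had 8.09 CPM in marrow and 0 in its tumour, and mouse 2721 had 71.2 CPM in marrow and 0.740 CPM over its tumours. With mouse as a blocking term and all 13 samples kept the fold change was -7.32 and passed (edgeR adjusted p = 0.0173; 0.156% of genes were called lower), and in these mice alone it was -7.42 (adjusted p = 0.00202; 0.229% of genes). Both block fits take the tissue difference from mice 1267 and 2721, since mice with 1 tissue do not inform it, so they are not separate results. The block fits leave 1 residual degree of freedom, so their spread is largely borrowed from other genes, and the calls depended on the tool. With limma-voom and the same blocks, added after the data were seen, the fold changes were -7.86 and -7.96 and did not pass (adjusted p = 0.0850 and 0.0682; 0% and 0.00695% of genes were called lower). The call depended on single libraries: Prss34 passed without marrow 919 (adjusted p = 0.0379), without marrow 782 (0.0495) or without sarcoma 2721 (0.0387), and did not pass without the 4 libraries low in long transcripts (0.0770). All 30 sarcoma counts came from mouse 2721, so that without it the fitted fold change is no estimate. The marrow mean of 41.0 CPM was then at least 1290-fold above the 0.0317 CPM that 3 counts over the other 3 mice give. That mean rests on marrows 1103, 949 and 2721 (182, 83.5 and 71.2 CPM). The marrow median was 8.09 CPM, and marrow 919 held 0.128 CPM. Over 29 alternative fits Prss34 was lower in all 29 and called in 10, both edgeR block fits among them, with adjusted p-values from 8.96e-06 to 0.268.

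Mcpt8 encodes another protease of mouse basophils. It ran from 3.004 over a median of 22.5 to 129 CPM in the 9 marrows. In the sarcomas it was 0.776 CPM in mouse 1268_1270, 10.1 in mouse 948, 10.6 in mouse 1267 and 35.1 in mouse 2721. The groups overlapped broadly, since the sarcoma of mouse 2721 exceeded 6 of the 9 marrows, and only 1268_1270 fell below them all. The log2 fold change was -1.34 ± 0.90 (edgeR adjusted p = 0.643), and in mouse 1267 the tumour was above the marrow, 10.6 against 7.43 CPM.

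Set against each other, the basophil proteases gave few Prss34 counts in the tumours. Per 100 Mcpt8 counts, the sarcomas of mice 948, 1267 and 1268_1270 held 0 Prss34 counts and that of mouse 2721 held 2.11 (1.07 and 3.26 in its tumours). Marrow held 20.5 to 350 in 8 of 9 mice and 0.260 in mouse 919, which had 5 Prss34 counts beside 1925 Mcpt8 counts. The tumour of mouse 841 was like it at 0.322. This ratio was chosen after the values were seen and carries no test. The values for 1268_1270 rest on 18 Mcpt8 counts, where those of mice 948 and 1267 rest on 380 and 356.

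**Figure D2:**
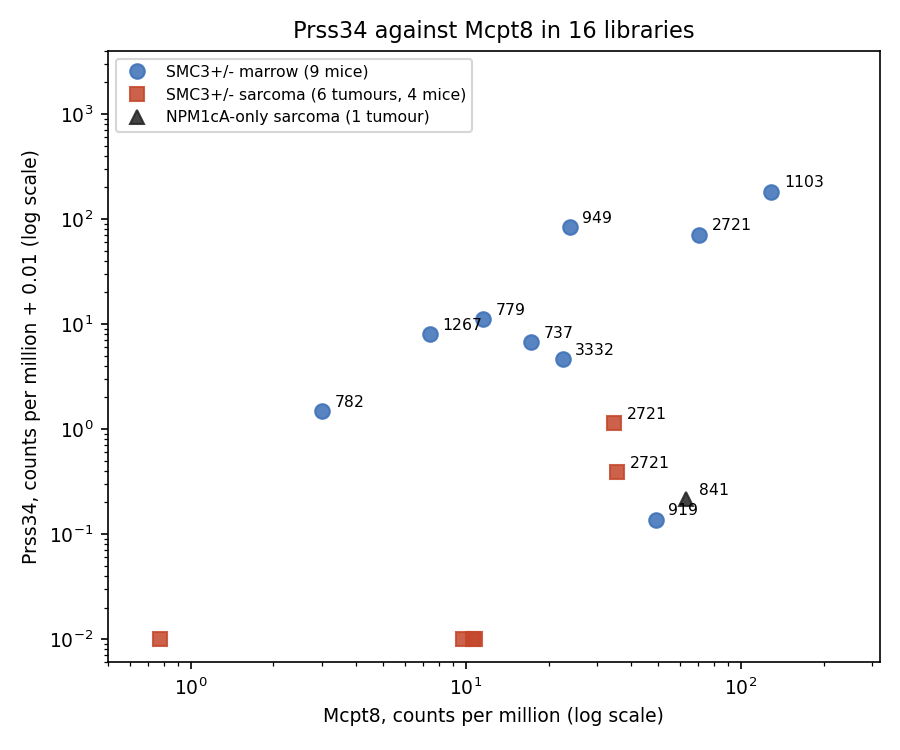
Prss34 (vertical, CPM plus 0.01) against Mcpt8 (horizontal, CPM), both on log scales, in 16 libraries; numbers are mice, and the unlabelled squares are tumours with 0 Prss34 counts. Of the marrows 8 lie in a band of 20.5 to 350 Prss34 counts per 100 Mcpt8 counts, and marrow 919 lies with the tumours of mice 2721 and 841.

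Cpa3 encodes a carboxypeptidase of mast cell and basophil granules. It was 0 in marrows 782 and 1267, had a marrow median of 12.8 CPM and reached 48.5 CPM in mouse 737. In sarcoma it was 0 in mouse 2721, 0.476 CPM in 1267, 4.24 in 948 and 4.49 in 1268_1270. The 4 sarcomas were below the marrow median and inside the marrow range. The log2 fold change of -2.53 ± 1.69 did not pass (edgeR adjusted p = 0.640), and it alone among the 8 changed direction with the pan-leukocyte scaling, at 0.16.

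Fcer1a and Ms4a2 encode the alpha and beta chains of the high-affinity IgE receptor. Fcer1a was at 0 in 4 of 9 marrows, with a median of 1.25 and a highest level of 15.8 CPM in mouse 1103, and sarcomas had 0 to 1.64 CPM (log2 fold change -2.28 ± 2.03, edgeR adjusted p = 0.787). Ms4a2 ran from 0 in marrow 737 over 3.61 to 19.6 CPM in marrow 2721. Its sarcoma levels were 0.0863 CPM in 1268_1270, 1.96 in 948, 2.05 in 1267 and 3.13 in 2721. All 4 sarcomas lay below the marrow median without leaving the marrow range (log2 fold change -1.91 ± 1.19, edgeR adjusted p = 0.599).

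Hdc encodes histidine decarboxylase, the enzyme that makes histamine, and in mice it is also known from immature myeloid cells of the marrow. Its marrow levels ran from 2.94 CPM in mouse 782 over a median of 26.8 to 397 CPM in mouse 949. In sarcoma it was 2.89 CPM in 1268_1270, 3.16 in 2721, 3.39 in 1267 and 13.5 in 948, where tumour 2 held 27.8 and tumour 1 held 6.82 CPM. All 4 sarcoma mice were below the marrow median, although the groups overlapped: sarcoma 948 exceeded 4 of the 9 marrows, and tumour 2 of that mouse alone exceeded the median. The mean was 78.3 ± 126 CPM (SD, n = 9) in marrow and 5.75 ± 5.20 CPM (SD, n = 4) in sarcoma, with a log2 fold change of -3.66 ± 1.26 (edgeR adjusted p = 0.144).

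Hdc passed in 3 of 29 alternatives, DESeq2 (adjusted p = 0.00578), the mouse block over all samples (-4.39, edgeR adjusted p = 0.0195) and the block in mice 1267 and 2721 alone (-4.35, adjusted p = 0.00202). Both blocks rest on mice 1267 and 2721. Hdc did not pass under those blocks with limma-voom (-4.68 and -4.71, adjusted p = 0.0861 and 0.0863), and without marrow 949 its fold change was -2.43 (edgeR adjusted p = 0.197). In mouse 1267 it was 26.8 CPM in marrow and 3.39 CPM in the tumour. In mouse 2721 it was 125 CPM in marrow and 3.16 CPM over both tumours. Slc18a2, the transporter that loads histamine into granules and a gene named here after its values were seen, had 4.05 CPM in sarcoma and 7.05 CPM in marrow on average (log2 fold change -0.75, adjusted p = 0.913).

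Prg2 encodes major basic protein and Epx eosinophil peroxidase, both stored in eosinophil granules. Prg2 ran from 1.90 over a median of 6.01 to 32.8 CPM in marrow. In sarcoma it was 1.55 CPM in 1267, 1.85 in 2721, 1.94 in 1268_1270 and 3.68 in 948. Mice 1267 and 2721 were below every marrow and the others lay at its lower end (log2 fold change -2.23 ± 0.87, edgeR adjusted p = 0.222, DESeq2 adjusted p = 0.0666). With pan-leukocyte scaling the Prg2 fold change was -0.11 (edgeR adjusted p = 0.924).

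Epx ran from 0 in marrow 737 over a median of 2.40 to 23.7 CPM in marrow 2721. In sarcoma it was 0 in 1268_1270, 0.212 CPM in 948, 0.666 in 2721 and 1.73 in 1267. The sarcomas were below the marrow median and within its range (log2 fold change -3.14 ± 1.49, edgeR adjusted p = 0.379), and with the tumour of mouse 841 added the Epx fold change was -0.55 (adjusted p = 0.940).

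**Figure D3:**
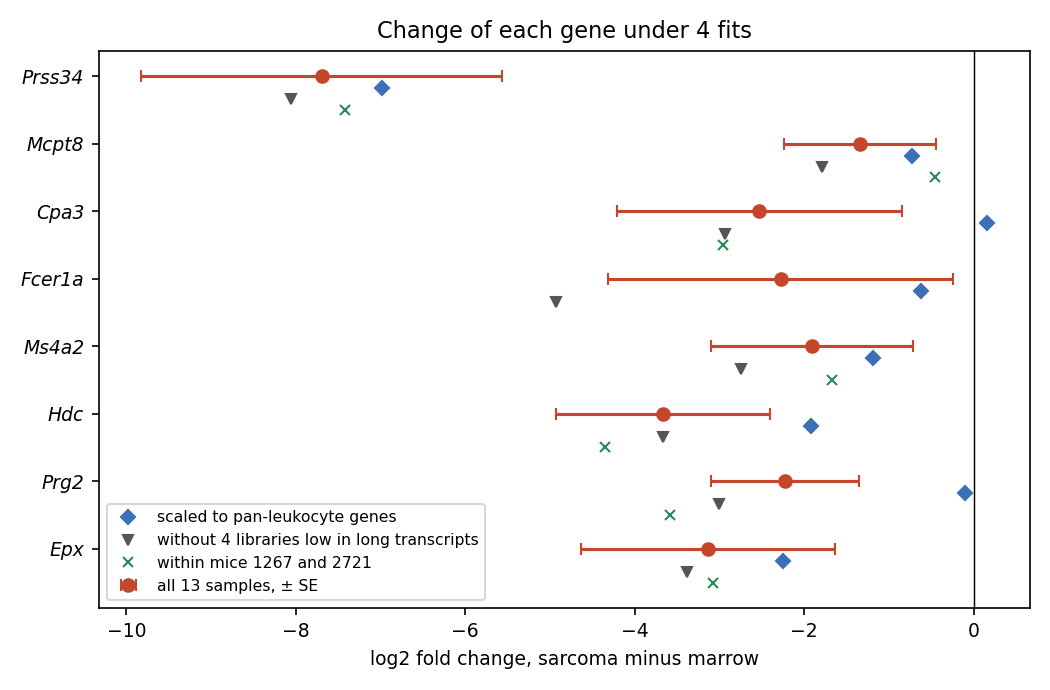
Log2 fold change, sarcoma minus marrow, of the 8 genes in the edgeR fit of 13 samples (circles, bars are the SE) and in 3 other fits; Fcer1a has no value within mice 1267 and 2721. All circles lie left of 0, from -7.69 for Prss34 to -1.34 for Mcpt8, and 1 marker, Cpa3 scaled to pan-leukocyte genes, lies right of it at 0.16.

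The tumour of mouse 841 set 1 library beside the SMC3+/- tumours and was not tested, being the only sample of its genotype. Its Epx level was 18.4 CPM, against 0 to 1.73 CPM in the 6 SMC3+/- tumours, while Prg2, the companion eosinophil gene, had 0 counts there (up to 0.306 CPM) and 0.460 to 4.48 CPM in the 6. Mcpt8 at 63.4 CPM was above the 0.776 to 35.5 CPM of the others, Hdc at 36.5 CPM above their 2.56 to 27.8 CPM, and Ms4a2 at 5.41 CPM above their 0.0863 to 3.33 CPM. Prss34 at 0.204, Cpa3 at 0.408 and Fcer1a at 0.102 CPM lay within their range. So 4 of the 8 genes were above all 6 SMC3+/- tumours, as were 12% of the 14730 genes, 1 was below them all, as were 5.51%, and 3 were inside. Summed over the 8 genes the tumour held 124 CPM, against 10.6 to 46.7 CPM.

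Among the 9 marrows the 8 genes varied widely. Their summed level was 582 CPM in mouse 949, 420 in 1103 and 354 in 2721, and 19.3 to 158 CPM in the other 6. Different genes led in each: Prss34 and Mcpt8 in 1103, Hdc in 949 and Epx and Ms4a2 in 2721, while Cpa3 was highest in 737, whose Fcer1a, Ms4a2 and Epx were at 0. Mice 782 and 1267 had 0 counts of both Cpa3 and Fcer1a.

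**Figure D4:**
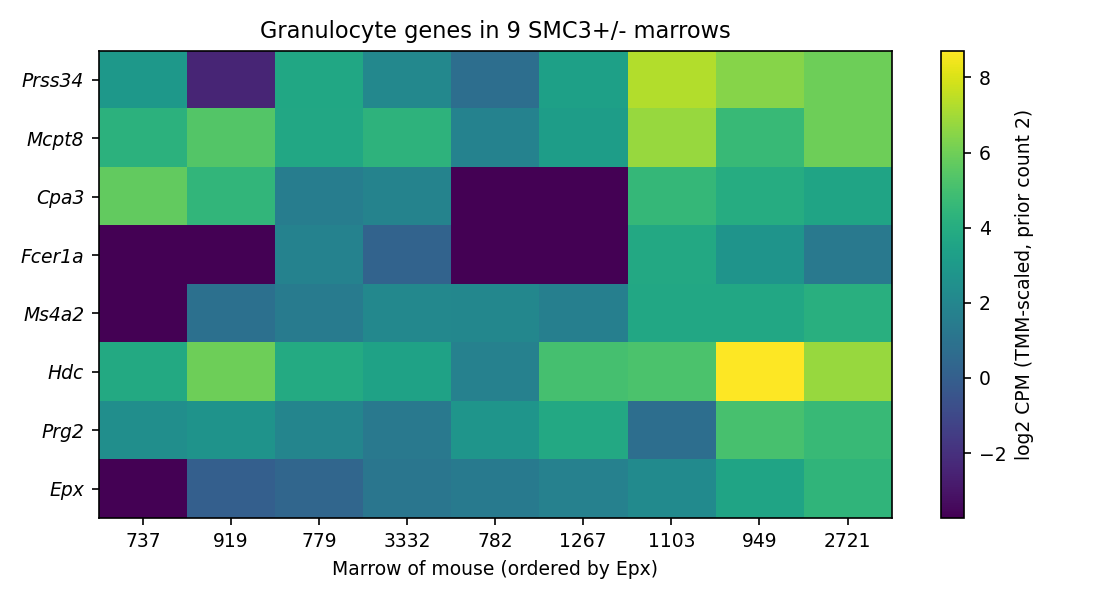
Log2 CPM (TMM-scaled, prior count of 2) of the 8 genes in the 9 marrows, ordered by Epx; the darkest cells are samples with 0 counts. Marrows 1103, 949 and 2721 are brightest, and Ms4a2 and Epx darken together towards marrow 737.

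Over the 9 marrows 23 of the 28 pairs of these genes had a positive Pearson r of log2 CPM, with a median of 0.45, and 4 had a two-sided exact permutation p under 0.05. After adjustment over the 28 pairs 1 remained, Ms4a2 with Epx (r = 0.97, exact permutation p = 5.24e-05, adjusted 0.00147; Spearman's rho 0.93, exact p = 0.000750, adjusted 0.0210). Without the marrows farthest from the median of Ms4a2, 737 and 2721, r was 0.89. Over the 6 marrows other than 737, 779 and 782 it was 0.91, with marrow 1267 (long-transcript deviation -0.61) among them. This pair joins a basophil and mast cell receptor chain with an eosinophil granule enzyme and was singled out after its value was seen.

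Of the other 3 pairs with an unadjusted p under 0.05, Mcpt8 with Cpa3 and Prss34 with Fcer1a, basophil and mast cell genes, had r = 0.78 each (exact permutation p = 0.0114 and 0.0117, adjusted 0.109 for both). The third was Fcer1a with Ms4a2, the chains of the receptor, at r = 0.65 (exact permutation p = 0.0300, adjusted 0.210).

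The remaining pairs picked by name for a shared cell did not pass either. Prss34 and Mcpt8 had r = 0.43 (exact permutation p = 0.254, adjusted 0.419; rho 0.47, exact p = 0.213), which became 0.78 without marrows 919 and 1103 and 0.86 without 919 alone (exact permutation p = 0.00570, adjusted 0.0799). It fell to 0.20 without marrow 1103 alone, to 0.30 without marrow 782 and to 0.31 without marrows 737, 779 and 782. Cpa3 and Hdc had r = 0.48 (adjusted exact permutation p = 0.419). Prg2 and Epx had r = 0.48 (adjusted exact permutation p = 0.419), which became -0.14 without both marrows 949 and 2721. Without 949 or 2721 alone it was 0.34 and 0.30. It rose to 0.67 without marrow 1103, to 0.64 without 737 and to 0.61 without marrows 737, 779 and 782.

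Genes whose marrow pattern was most like that of Mcpt8, among 9082 genes averaging a log2 CPM of 3 or more, were Gas2l3 (r = 0.94), Tnfrsf14, Gpr132 and Lifr (0.92 each), beside 1 Riken gene. Most like Epx, among 9083 genes, were Rasa2, Vsig10l and Mcu (0.91 each), C5ar1 (0.90) and Sidt2 (0.89). These are Pearson r values over the 9 marrows, picked as the highest among those genes, and are descriptions that share library and depth.

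Other markers of the same cells were read from lists chosen by cell and pathway. Of 14 basophil genes beside the 8, 11 passed the count filter and 0 were called in either direction (median log2 fold change -0.37). Il18rap, a chain of the interleukin 18 receptor, had 203 CPM in sarcoma and 172 in marrow (edgeR adjusted p = 0.972), and Osm, a cytokine of activated myeloid cells, had 10.8 CPM in sarcoma and 100.1 in marrow (log2 -3.28, edgeR adjusted p = 0.160, DESeq2 adjusted p = 0.0115). Osm was highest in marrows 779, 949 and 782, at 399.5, 188 and 158 CPM against 8.66 to 53.8 CPM in the other 6, and its fold change was -2.54 without 779 and -1.53 without the 4 libraries low in long transcripts, which include 779 and 782 (edgeR adjusted p = 0.225 and 0.587). The table held 14 eosinophil genes, of which 9 were tested and 1 rose, where 4.49% of all genes were called higher (median 0.40). It was Ltc4s, which makes the lipid mediator leukotriene C4. Ltc4s had 22.3 ± 36.9 CPM (SD, n = 4) in sarcoma and 0.449 ± 0.506 CPM (SD, n = 9) in marrow (log2 5.62 ± 1.28, edgeR adjusted p = 0.0199). By mouse its sarcoma values ran from 1.79 to 77.6 CPM, all above the marrows. Tumour 1 of mouse 948 alone held 0.663 CPM, below marrows 1267 and 3332 (1.55 and 0.895 CPM), and tumour 2 held 17.4 CPM. The Ltc4s call was lost without sarcoma 1268_1270 (3.03, adjusted p = 0.673), without the 4 libraries low in long transcripts (5.49, adjusted p = 0.0813) and with the mouse block (2.69, adjusted p = 1.00). The Ear ribonucleases and the mast cell proteases have near-identical relatives among which counting may have split reads, so their values are uncertain.

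Of 20 mast cell genes 8 passed the count filter and 0 were called (median 0.67), among them Kit, the stem cell factor receptor, with 28.1 CPM in sarcoma and 49.8 CPM in marrow (log2 -0.86, edgeR adjusted p = 0.690; 0.55 with pan-leukocyte scaling). Ctsg, a protease that neutrophil precursors make too, had 2620.2 and 2736 CPM (edgeR adjusted p = 0.992). Without the filter 4 were called higher and 0 lower, where 6.42% of 21093 genes were called higher: the tryptase Tpsb2 (edgeR adjusted p = 0.0133), the chymases Cma1 (0.0140) and Mcpt4 (0.0237), and the receptor Mrgprb1 (0.0481). They were named after their values were seen, and Tpsab1 and Mrgprb2 of the same list, at 0 counts over the marrows too, did not pass (adjusted p = 0.112 and 0.0790). Rgs13, Mcpt9, Cma2 and Mcpt1 of the list also had 0 counts over the marrows and did not pass (edgeR adjusted p = 0.0992, 0.142, 0.177 and 0.220). Of the 4 called genes, Tpsb2 and Mrgprb1 had 0 counts over the 9 marrows, Cma1 had 3 and Mcpt4 had 8. Cma1 and Mcpt4 were at 0 in sarcoma 1267 and Mrgprb1 in sarcoma 2721, so the groups overlapped for these.

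These genes were not in all tumours. Tpsb2 was 14.5 CPM in tumour 1 of mouse 948, 6.73 in 1268_1270, 0.856 in tumour 1 of 2721 and 0.238 in 1267, and was 0 in the second tumours of 948 and 2721 and in 841. Its sarcoma mean of 4.32 CPM was at least 285-fold above the 0.0152 CPM that 3 counts over the marrows give, and at least 163-fold without mouse 948. Mcpt4 was 7.81 CPM in 1268_1270 and 6.20 in tumour 1 of 948 and at most 0.154 CPM in the others. Cma1 was 5.65 and 3.86 CPM in those tumours and at most 0.476 elsewhere, and Mrgprb1 1.38 and 1.09 CPM and at most 0.331. Both tumours were also the SMC3+/- libraries that stood apart, 1268_1270 in leukocyte genes and tumour 1 of 948 in long transcripts, and the part of this was not tested. Cpa3, which the same cells store, was at 4.49 and 5.34 CPM in these tumours and at 0 to 1.91 CPM in the other 4.

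**Figure D5:**
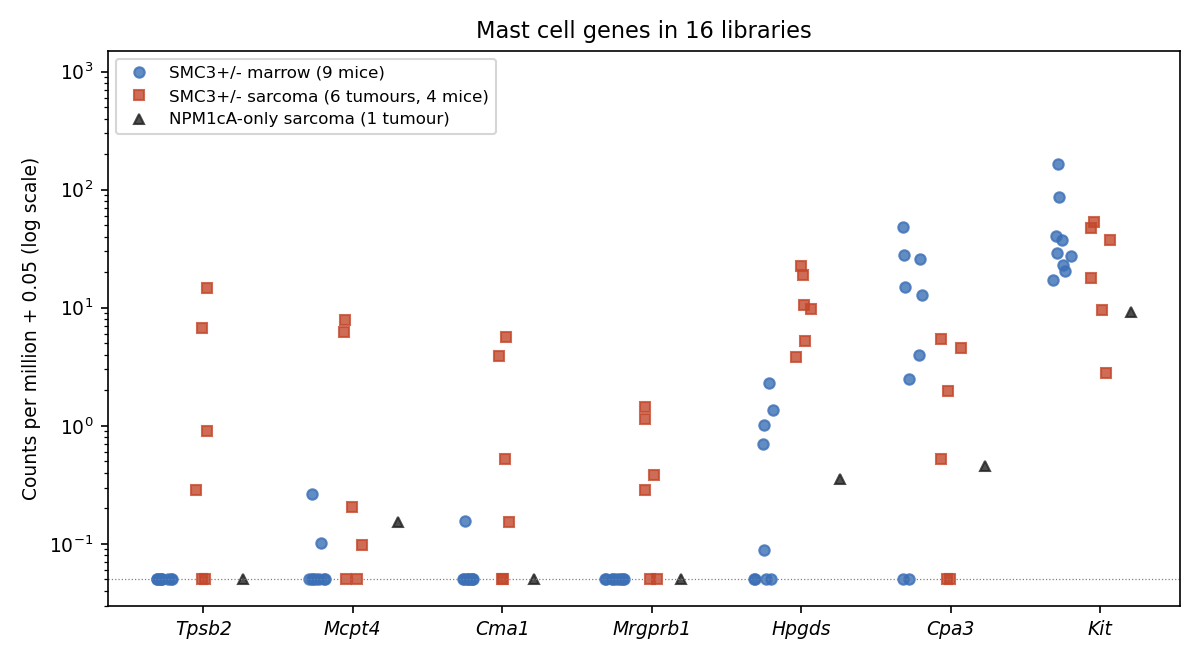
Level of 7 mast cell genes in each of 16 libraries, in CPM plus 0.05 on a log scale, with symbols as for the 8 genes; the dotted line marks 0. Tpsb2 and Mrgprb1 lie at 0 in all 9 marrows, and for Tpsb2, Mcpt4 and Cma1 a pair of tumours, 948 tumour 1 and 1268_1270, lies at 3.86 CPM or more.

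The machinery of the IgE receptor showed no called gene. Of 24 genes, all tested, 0 rose and 0 fell (median -0.55, 0.59 with pan-leukocyte scaling), with Ptpn6, an inhibitory phosphatase, at 215 CPM in sarcoma and 437 in marrow (edgeR adjusted p = 0.358) and Prkcd, a kinase of the pathway, at 234 and 328 CPM (0.806). In the pan-leukocyte list 0 of 16 were called, with a median of -0.83. Pan-leukocyte scaling also turned the medians of the basophil, transcription factor, receptor and granule lists positive, to 0.93, 1.25, 0.63 and 0.39. It put the median of all genes at 2.06, above these lists and the IgE receptor list. Of 17 tested genes for histamine, heparin and lipid mediators 1 rose, Ltc4s again (median 0.09), where 4.49% of all genes were called higher. Hpgds, the prostaglandin D synthase of mast cells and macrophages, named after its values were seen, had 12.8 CPM against 0.580 CPM (log2 4.29, adjusted p = 0.0929). Of 12 tested granule and peroxidase genes 0 were called (median -0.44). The most abundant, Elane and Mpo of neutrophil precursors, had 7464 and 3896 CPM in sarcoma and 5655 and 6254 CPM in marrow (adjusted p = 0.987 and 0.882).

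Of 21 lineage transcription factors, with a median of -0.21, 1 rose, where 4.49% of all genes were called higher. It was Bhlhe41, a transcriptional repressor, at 13.4 ± 5.35 CPM in 4 sarcomas and 1.13 ± 1.10 CPM in 9 marrows (log2 3.44 ± 0.92, edgeR adjusted p = 0.0456). Its values did not overlap, a pattern higher in sarcoma for 3.82% of genes, but the adjusted p lay close to the threshold. The Bhlhe41 call was lost in 8 of the 13 fits without 1 mouse, those without sarcoma 1267, 1268_1270 or 2721 or marrow 737, 779, 919, 2721 or 3332, although the fold change stayed at 3.28 to 3.91 over all 13 (edgeR adjusted p from 0.0277 to 0.204). With the mouse block over all samples it was 2.71 (adjusted p = 1.00). Gata2 had 2.91 CPM in sarcoma and 11.7 CPM in marrow (log2 -1.83, adjusted p = 0.626) and Gata1 0.169 and 1.69 CPM (-3.01, adjusted p = 0.602), both named after their values were seen.

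Factors that feed or attract these cells included 4 genes that rose, all present near 0 in marrow. Of 17 listed, 12 passed the filter, 4 rose and 0 fell (median 3.17, unchanged with Ccl11 at its bound), where 4.49% of all genes were called higher. Ccl11, eotaxin, which attracts eosinophils, had 0 counts over the marrows and 1.01 to 56.2 CPM in the sarcomas, at least 1029.7-fold above the 0.0152 CPM floor in the mean (edgeR adjusted p = 0.0157). Sarcoma 1268_1270 held the 56.2 CPM, the others 1.01 to 3.21 CPM, and without it the bound was 138-fold. Il33, an alarmin that acts on mast cells and basophils, had 11.2 ± 7.54 CPM (SD, n = 4) against 0.155 ± 0.263 CPM (SD, n = 9; log2 6.15 ± 1.34, adjusted p = 0.0156). The chemokines Ccl12 (4.66 against 0.0299 CPM, adjusted p = 0.00636) and Ccl8 (23.8 against 0.338 CPM, adjusted p = 0.0260) rose as well. For each of the 4 the sarcoma and marrow mice did not overlap. Without sarcoma 1268_1270 the calls of Ccl11, Il33 and Ccl8 were lost (edgeR adjusted p = 0.0686, 0.0576 and 0.163), while the fold change of Il33 was 6.18 and that of Ccl8 5.45, against 6.15 and 6.09 with it. Ccl8 also missed the threshold without marrow 3332 or 919 (adjusted p up to 0.0504), and without marrow 779, the one with 2.66 CPM, its fold change was 8.90 (adjusted p = 0.00123). Leaving out the 4 libraries low in long transcripts ended the Il33 call (5.90, adjusted p = 0.0720).

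With the mouse block over all samples all 4 genes lost the call (edgeR adjusted p = 0.396 for Ccl11, 0.397 for Il33, 0.0641 for Ccl8 and 0.930 for Ccl12). In mice 1267 and 2721 alone Il33 and Ccl8 passed (adjusted p = 0.0132 and 0.00521) and Ccl11 and Ccl12 did not (0.999 each). In no block fit was the direction changed.

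Markers of other tissue cells were also measured in the tumours. Fibroblast genes were called higher for 8 of 9, adipocyte genes for 7 of 7, skeletal muscle genes for 5 of 7 and monocyte and macrophage genes for 4 of 10, against 4.49% of all genes, and their part in the values above was not tested. Muscle genes summed to 135 to 1642 CPM in tumour 1 of 948, tumour 2 of 2721 and 1268_1270. In the other SMC3+/- tumours they summed to 8.15 to 29.3 CPM, inside the marrow range of 7.43 to 70.6 CPM. Of the 10 monocyte and macrophage genes 7 had a positive and 3 a negative fold change. Interleukin 3 (Il3) had 5.40 CPM in sarcoma and 2.92 CPM in marrow (adjusted p = 0.948), and Kitl, the ligand of Kit, 17.6 and 1.04 CPM (adjusted p = 0.179), both named after their values were seen. The receptors for these factors gave 0 calls among 16 tested (median -0.48), with Cxcr4 at 374 and 509 CPM and Csf2ra at 296 and 360 CPM (edgeR adjusted p = 0.861 and 0.974).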

How the data were processed

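The authors deposited 1 table of raw counts per gene symbol for 16 poly(A) RNA libraries made with an NEBNext kit, per the labels' protocols, and 0 columns belonged to other samples. Per the submitters' processing notes, STAR, DESeq and DESeq2 were used with build mm9, and no version or role is stated. Neither annotation nor strand setting is given in the sources used here. The 8 genes and all lists were chosen with earlier results of these data known.

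Tumours of the same mouse were summed, which gave 4 sarcoma and 9 marrow mice. The labels call them separate mice, and the closest pair of libraries, both tumours of mouse 2721, still differed (mean chi-square per gene 18.6). Counts were filtered with filterByExpr, scaled by TMM and tested with edgeR 4.0.16 (robust quasi-likelihood fit, two-sided) under R 4.3.3 over all genes, called under an adjusted p of 0.05. The SE was derived from each fold change and its F statistic and is approximate. DESeq2 1.42.0 and limma-voom (limma 3.58.1) were alternatives, beside other scalings, filters and samples and, added after the data were seen, limma-voom with the mouse block. Per the labels both tissues came from mice 1267 and 2721, which pairs those samples, and the deviations of their 2 tissues correlated at 0.29 and 0.21. A fixed rule chose the genes named: the 8, up to 4 called genes per list by adjusted p or else the 2 most abundant, and the 5 genes most like Mcpt8 and like Epx. Lists of other cells are given as counts, and further genes are marked as named later. The symbols Adgre4, Adgre1, Id1, Id2 and Jchain were not analysed here. Floors are 3 counts and cover counting error only, since the counts carry no molecular identifiers. On simulated counts of 14264 genes the test called 11 of 50 genes lowered 4-fold, 25 of 50 lowered 16-fold, 16 of 50 raised 4-fold and 39 of 50 raised 16-fold, with 2 false calls.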

Additional observations from a re-analysis of the deposited data

Results flagged for a closer look

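In 6 of the 16 groups of values (8 genes in 4 sarcoma and in 9 marrow mice) the highest sample lay far from the rest. The gap used is one that chance passes in about 1 of 20 groups of normally distributed values. CPM values are skewed and some are 0, so that rate need not hold here, and the 6 are given as descriptions only. Marrow 1103 held 182 CPM of Prss34, with 83.5 CPM next, and 15.8 CPM of Fcer1a, with 6.12 CPM next. Marrow 949 held 397 CPM of Hdc, with 125 CPM next. Marrow 2721 held 23.7 CPM of Epx, with 10.8 CPM next. Among the sarcomas mouse 948 held 13.5 CPM of Hdc, with 3.39 CPM next, and mouse 2721 held 0.740 CPM of Prss34, where the other 3 were at 0, so that any count would have been flagged. Both tissues of mouse 2721 are therefore among the 6, by different genes.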

How the results depend on the processing

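Over 688 alternative fits of 24 named genes, 598 kept direction and call, 43 lost the call, 14 gained it and 33 changed direction, the latter for genes that were not called. With pan-leukocyte scaling the log2 fold change became 0.16 for Cpa3, 0.28 for Ctsg, 0.55 for Kit, 0.58 for Prkcd, 0.16 for Cxcr4 and 0.71 for Csf2ra. Ctsg also became 0.0293 with tumour libraries as units, 0.70 and 0.74 with the blocks over all mice and over mice 1267 and 2721 (0.75 and 0.79 with limma-voom, a pair of fits chosen after seeing the data), 0.27 without sarcoma 1268_1270 and the 4 libraries with few long transcripts, and 0.17 with mouse 841 added. Csf2ra became 0.0851 with libraries as units, 0.20 and 0.24 with the blocks (0.19 and 0.23 with limma-voom) and 0.00617 with mouse 841 added. Il18rap became -0.34 with limma-voom and -0.32 and -0.28 with the blocks (-0.38 and -0.31 with limma-voom), and Elane -0.84 with limma-voom. With 1 mouse left out, Ctsg ranged from -0.38 to 0.27, Csf2ra from -1.06 to 0.0762, Il18rap from -0.37 to 0.68 and Elane from -0.25 to 0.66. Of all genes 662 were called higher and 8 lower. Higher calls were 8576 with pan-leukocyte scaling, 1355 without a count filter, 107 with the replicate block over all mice (0 with limma-voom, 1894 genes at an unadjusted p under 0.05), 81 with the block in mice 1267 and 2721 (179 with limma-voom), 300 without the 4 libraries low in long transcripts, 62 without those and sarcoma 1268_1270, and 170 to 762 with 1 mouse left out. Lower calls were 13 without a filter, 83 with DESeq2, 20 with limma-voom, 17 with tumour libraries as units, 23 and 33 with the blocks (0 and 1 with limma-voom), 3 without the 4 libraries, 0 without those and 1268_1270, 20 with mouse 841 added, and 0 to 16 with 1 mouse left out. Of the 8 genes, 0 were called lower, but 1 was with pan-leukocyte scaling, without a filter, with tumour libraries as units or with mouse 841 added, 2 with DESeq2 or either replicate block by edgeR (0 by limma-voom), and 0 to 1 with 1 mouse left out. The cause was not tested. The adjusted p of the 4 pairs picked by name stayed above 0.05 in every alternative, the lowest, 0.0799, being that of Prss34 with Mcpt8 without marrow 919 (r = 0.86, against 0.43 with all marrows and 0.20 without marrow 1103). Levels under about 1 CPM, as for Fcer1a and Prss34 in sarcoma, rest on few counts, and 4 sarcoma mice limit every test.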
